A study of Mus musculus with 12 samples.

Results

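The replication-dependent histone genes are the 65 genes, of 55414 gene records counted, that encode the linker histone H1 and the core histones H2A, H2B, H3 and H4 made for newly copied DNA. They were chosen by name alone: 60 by the symbol in the authors' result tables and 5 by the GENCODE name where those tables held no symbol. They comprised 5 genes of H1, 19 records of H2A (2 of them pseudogenes), 17 of H2B, 12 of H3 and 12 of H4. On the mouse build GRCm39, 55 lay on chromosome 13 and 10 on chromosome 3, and the annotated transcript of 60 was a single exon.

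RNA was measured in splenic CD4+ T cells of wild-type BALB/c males aged 18 weeks. In the LIP group (ligature-induced periodontitis) silk ligatures had been tied around the second maxillary molars for 14 days, and the CTL group was anesthetized without ligation. Day 0 cells were not cultured. Day 2 cells were cultured for 2 days with IL-2, anti-TCRβ and anti-CD28, which activate T cells (per the labels 10 ng/mL IL-2 and 1 µg/mL of each antibody, while the paper's methods give 2.5 ng/mL IL-2, 3 µg/mL anti-TCRβ and 1 µg/mL anti-CD28; the treatment labels of 4 of the 6 day 2 libraries name anti-CD29 or anti-CD30 in place of anti-CD28). Each of the 4 groups had 3 libraries, named here by the number in their labels: CTL 88, 89 and 94 and LIP 92, 93 and 94 on day 0, CTL 92, 93 and 97 and LIP 90, 96 and 97 on day 2. The labels do not say how the libraries map to animals, so p-values measure the spread between libraries.

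Replication-dependent histone mRNAs are made mainly while DNA is copied, so that chromatin can be packed as it forms. Unlike other mRNAs they end in a conserved stem-loop instead of a poly(A) tail, and the stem-loop-binding protein SLBP acts on that end in processing, translation and decay. Some members can also give polyadenylated transcripts in cells that do not divide. The libraries were made from total RNA after depletion of ribosomal RNA, so transcripts without a tail were kept. A resting T cell divides rarely, and its activation leads into rounds of DNA synthesis.

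The stem-loop is the feature that sets these transcripts apart, so examples from each family are shown first, read from the GRCm39 genome downstream of the stop codon. Capitals mark the stem-loop, a stem of 6 paired bases starting with GG around a loop of 4 bases starting with TT.
H1f2 (chr13:23923488-23923517, plus strand): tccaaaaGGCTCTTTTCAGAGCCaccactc
H2ac20 (chr3:96127727-96127756, minus strand): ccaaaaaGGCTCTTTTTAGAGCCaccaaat
H2bc12 (chr13:22220463-22220492, plus strand): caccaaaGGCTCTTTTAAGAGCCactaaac
H3c15 (chr3:96145794-96145823, minus strand): ccacaaaGGCTCTTTTCAGAGCCaccacag
H4c18 (chr13:22015961-22015990, minus strand): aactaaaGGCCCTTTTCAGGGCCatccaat
H4c11 (chr13:21919600-21919629, plus strand): ccctaaaGGTCCTTTTCAGGACCaccacat
Such a stem-loop lay within 120 bases after the stop codon of at least 1 annotated transcript in 59 of the 63 coding members (93.7%). The same held for 87 of 21770 annotated protein-coding genes (0.4%), a count that includes these members and some other histone genes. The form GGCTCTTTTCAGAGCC, seen in H1f2 and H3c15, was carried by 39 members, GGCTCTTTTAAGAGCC by 8, and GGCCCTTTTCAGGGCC, seen in H4c18, by 7. H4c11 was 1 of 2 members with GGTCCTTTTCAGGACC, and H2ac20 was the only member with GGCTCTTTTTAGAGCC. The 4 members without a match were H2ac22, H2bc21, H3c8 and H4c1. Of their closest stretches, only that of H2ac22 kept the stem start defined above. Those of H2bc21, H3c8 and H4c1 lacked it, so a low number of unpaired positions there does not mark a near copy of the stem-loop. The closest stretch in H2ac22, GGCTCTTTTCAGAGCT, had 1 unpaired position in the stem, as had that of H3c8, while those of H2bc21 and H4c1 had 3.

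Many H2A and H2B genes lie head to head and share a stretch of upstream DNA. The H2ac20 and H2bc21 starts are 239 bases apart on chromosome 3, and those of H2ac8 and H2bc8 are 176 bases apart on chromosome 13. The upstream DNA of these pairs is shown because H2ac20 and H2bc21 moved in opposite directions with culture whereas H2ac8 and H2bc8 moved together, both pairs picked after their values were seen. Each is printed along the H2B gene from 250 bases before its start to 50 bases into it, with the CCAAT box, the TATAAA box and the octamer ATTTGCAT, all searched on both strands, in capitals.
H2bc21 promoter (GRCm39, chr3:96128185-96128484, plus strand): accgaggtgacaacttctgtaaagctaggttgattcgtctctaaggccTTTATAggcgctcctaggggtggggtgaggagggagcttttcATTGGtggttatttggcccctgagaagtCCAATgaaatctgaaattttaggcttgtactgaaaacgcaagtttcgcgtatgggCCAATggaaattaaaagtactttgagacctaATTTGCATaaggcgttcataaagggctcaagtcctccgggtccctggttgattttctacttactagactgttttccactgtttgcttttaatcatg
H2bc8 promoter (GRCm39, chr13:23755320-23755619, plus strand): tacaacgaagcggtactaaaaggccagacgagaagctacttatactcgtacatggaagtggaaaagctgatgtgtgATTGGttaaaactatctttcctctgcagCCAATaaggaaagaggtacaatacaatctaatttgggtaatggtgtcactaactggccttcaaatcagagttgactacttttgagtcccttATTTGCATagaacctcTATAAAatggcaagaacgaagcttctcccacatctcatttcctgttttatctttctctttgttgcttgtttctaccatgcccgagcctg
Both windows held all 3 motifs, but with the TATAAA box on opposite strands. In the H2bc21 window it appears as TTTATA and thus reads TATAAA along H2ac20. In the H2bc8 window it reads TATAAA along H2bc8 itself. The octamer, a sequence known to bind Oct-1 (Pou2f1), occurred in 41.2% of the 17 H2B and 35.3% of the 17 coding H2A promoters, in 0 of the 29 promoters of H1, H3 and H4, and in 1.63% of all 21770 protein-coding genes. CCAAT occurred in 82.5% of the coding members' promoters against 39.9% of all genes, and TATAAA in 55.6% against 13.2%.

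The libraries held 6249018 to 7845676 counts on day 0 and 8691699 to 12866718 on day 2, so that 3 counts equalled 0.233 to 0.480 CPM (counts scaled to a common library size, with TMM-adjusted sizes below). Markers of CD4+ T cells were high in every library (Cd4 421 to 643 CPM), and markers of other cells were lower. Myeloid markers summed to 6.13 to 16.8 CPM on day 0 and 2.5 to 5.14 on day 2, with the granulocyte genes S100a8 and S100a9 at 0 in all 12. Markers of B and plasma cells summed to 42.2 to 55.3 CPM on day 0 and 103 to 170 on day 2, and those of CD8 and NK cells to 61.7 to 81.3 and 15 to 46.4. Tests used edgeR's quasi-likelihood method with Benjamini-Hochberg adjustment over all genes, and a gene was called at an adjusted p under 0.05. Of the 65 members, 57 were tested on day 2 and between days, and 54 on day 0. The 8 never tested had 0 to 37 counts over all libraries: H2ac1, H2ac14-ps, H2ac19, H2ac23, H2ac5-ps, H2bc1, H2bc24 and H4c17.

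Near-identical copies limit what can be said of a single gene. Of the 65 members, 52 shared a 150-base stretch, the read length, with another member, and 91.2% of the members' values above 0 were not whole numbers (tolerance 0.005), compared with 29.2% for other genes. RSEM, the counting program, gives such values where it divides a read between records. The coding sequences of 5 pairs were identical. In each of those pairs 1 record held nearly all counts: H2ac18 had 69368 and H2ac19 had 11, H2ac24 had 24345 and H2ac23 had 37, H2bc23 had 7522 and H2bc24 had 27, H3c15 had 18924 and H3c14 had 255, and H4c18 had 36930 and H4c17 had 3. Sums over a family do not depend on a division among its own members. They can still depend on reads shared across families, as H1f4 shares a stretch with H2bc6, and on similar records outside the rule. Beside these, 13 members share no such stretch (among them H1f1, H1f2, H1f3, H1f5, H2ac20, H2bc21 and H4c14).

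Summed over all members, histone RNA was several-fold higher after culture in both groups. On day 0 CTL libraries 88, 89 and 94 had sums of 1432, 1094 and 2338 CPM, while LIP libraries 92, 93 and 94 had 1501, 1480.0 and 1675. On day 2 CTL libraries 92, 93 and 97 had 9592, 12114 and 13654 CPM, while LIP libraries 90, 96 and 97 had 17266, 12238 and 15533. In the sentences that follow, the 3 values of a group stand in this order. Every day 2 library was far above every day 0 library, with a ratio of the means of 7.27 in CTL and 9.67 in LIP. Members took 0.116% to 0.255% of all counts on day 0 and 0.924% to 1.5% on day 2. As in any bulk sample, more cells making histone RNA and more of it per cell cannot be told apart.

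**Figure D1:**
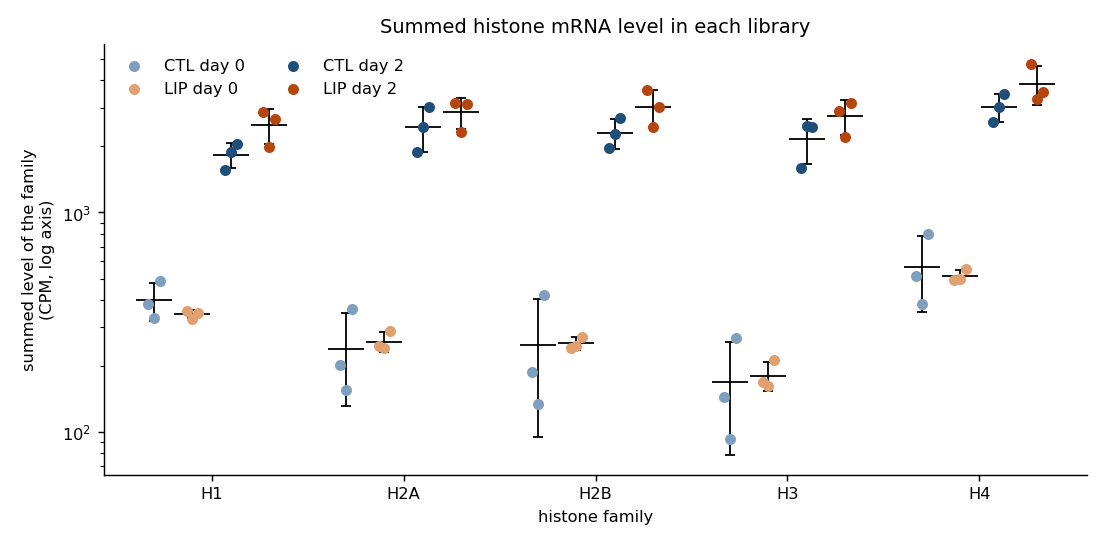
Summed level of each histone family (H1, H2A, H2B, H3, H4) in each library, in CPM on a log axis. Points are the 3 libraries of a group and lines the mean ± SD, and in every family all day 2 libraries sit above all day 0 libraries.

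Each family sum was higher on day 2, by the smallest ratio in H1 and the largest in H3. H1 went from a mean of 399.5 ± 79.5 to 1832 ± 244 CPM in CTL (SD, n = 3), a ratio of 4.59, and from 345 ± 13.7 to 2510 ± 464 in LIP, a ratio of 7.29. H2A went from 240.1 ± 109 to 2452 ± 571 CPM in CTL, a ratio of 10.2, with a ratio of 11.1 in LIP. H2B went from 248 ± 153 to 2312 ± 366 CPM in CTL, a ratio of 9.31, with a ratio of 11.9 in LIP. In both families the CTL libraries of day 0 spread more widely than the LIP libraries. H3 went from 168 ± 89.9 to 2165 ± 499 CPM in CTL, a ratio of 12.9, with a ratio of 15.2 in LIP. H4 went from 565 ± 213 to 3026 ± 431 CPM in CTL, a ratio of 5.35, with a ratio of 7.51 in LIP. These CTL ratios leaned on CTL 94 of day 0. Without it they were 5.14 for H1, 13.7 for H2A, 14.4 for H2B, 18.2 for H3 and 6.75 for H4, and 9.33 for all members, so that the H2A, H2B and H3 ratios lay above those of LIP.

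Gene by gene, culture raised nearly all members that could be tested. In CTL 55 of the 57 tested were called higher on day 2 and 1 lower, and in LIP 56 higher and 1 lower. Among all 15475 genes tested, 35.3% were called higher and 33.7% lower in CTL, and 36.6% and 35.2% in LIP. With upper-quartile scaling the all-gene calls were 4259 higher and 6827 lower in CTL, against 5456 and 5220, and 4293 and 7084 in LIP, against 5665 and 5446, while 55 members stayed higher and 1 lower in each group. The members' median log2 fold change was 3.34 in CTL and 3.66 in LIP, beside -0.02 and -0.0028 over all genes. Without CTL 94 of day 0 the median in CTL was 4.18, with 55 members called higher. Markers of other cells changed over culture as well. CD8 and NK markers were called lower in 6 of 7 tested in CTL and 5 of 7 in LIP. Myeloid markers were called lower in 4 of 5 in each group (median log2 change -4.44 in CTL and -4.15 in LIP) and higher in 1 in CTL. Markers of B and plasma cells were called higher in 3 of 9 in CTL and 6 of 9 in LIP and lower in 1 in each. Of the pancreatic acinar markers 1 was tested and was called higher in both groups (9.07 in CTL and 2.64 in LIP). On day 0 the acinar markers summed to 0.752, 0.601 and 1.18 CPM in CTL and to 0.687, 25.1 and 6.8 in LIP. The part of all these markers in the histone result was not tested. Among the 12 tested members that share no 150-base stretch with another, 11 rose and 1 fell in both groups. The median in CTL was 3.43 for the 48 tested members on chromosome 13 and 2.68 for the 9 on chromosome 3, ranges that overlapped widely (1.31 to 4.56 and -0.63 to 4.90).

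**Figure D2:**
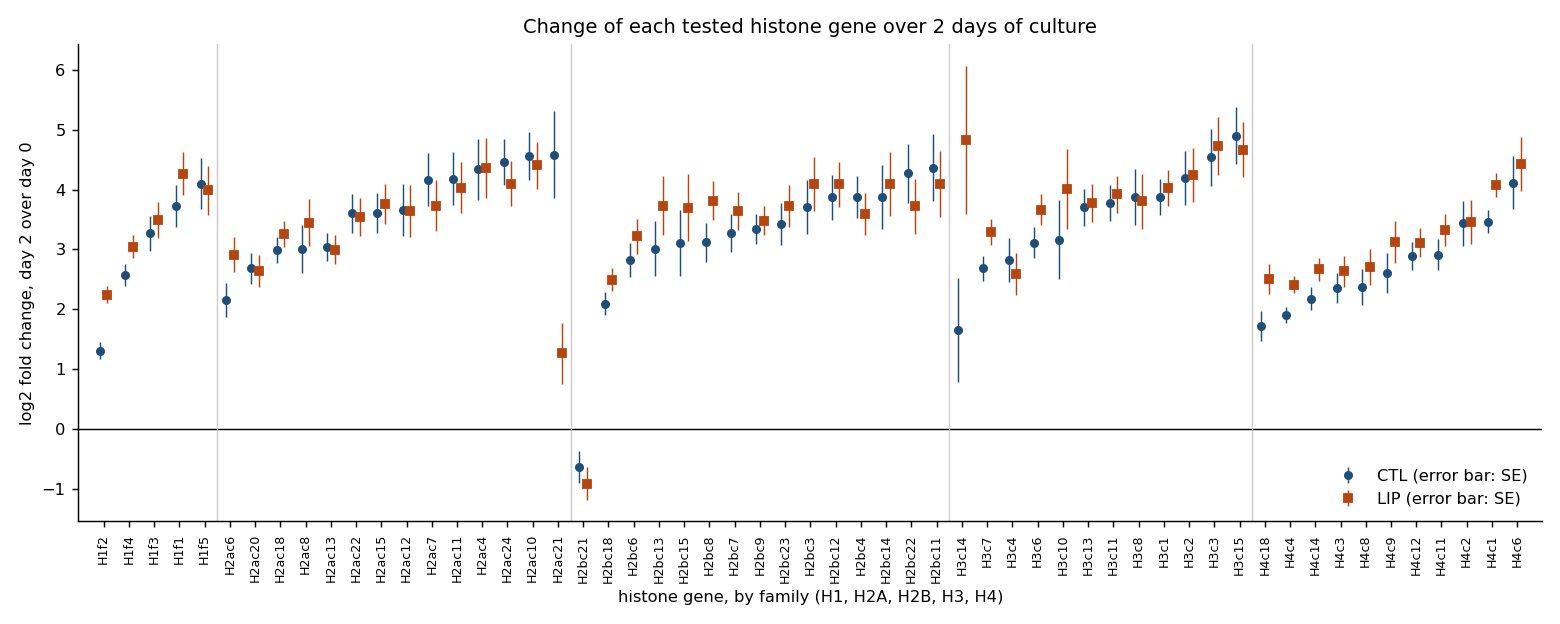
Log2 fold change of day 2 over day 0 for each of the 57 tested members, by family, in CTL (circles) and LIP (squares), with the SE as bar. All points lie above 0 except H2bc21, at -0.63 in CTL and -0.91 in LIP.

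Linker histone H1 binds the DNA between nucleosomes and compacts chromatin. H1f2 was by far the most abundant H1 gene before culture, at 260.1, 253 and 304 CPM in CTL and 231, 203 and 209 in LIP. After culture it stood at 581, 706 and 742 CPM in CTL and 1107, 805 and 1145 in LIP. It thus rose 1.31 (SE 0.14, adjusted p = 2.36e-06) on the log2 scale in CTL and 2.25 (SE 0.15) in LIP, the smallest rise of the family. H1f1, at 11.3, 6.49 and 23.4 CPM in CTL and 9.9, 12.6 and 14.1 in LIP on day 0, reached 149, 182 and 212 in CTL and 302, 170.2 and 234 in LIP on day 2. H1f5 went from 11.6, 2.64 and 21.4 CPM in CTL and 13.6, 14 and 18.3 in LIP to 182, 194 and 230.3 in CTL and 293, 197 and 240.0 in LIP. These genes, whose counts were whole numbers in all libraries, rose by 3.72 and 4.10 in CTL and 4.27 and 3.99 in LIP. H1f3 read 43.9, 22.9 and 70 CPM in CTL and 47.6, 54.9 and 60 in LIP on day 0, then 383, 436 and 503 in CTL and 672, 499.5 and 659 in LIP. H1f4 read 55, 44.9 and 67.5 CPM in CTL and 52.4, 44.6 and 48.8 in LIP, then 273, 362 and 361 in CTL and 494, 315 and 397 in LIP. Their log2 rises in CTL were 3.27 and 2.57, and in LIP 3.49 and 3.05.

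The make-up of H1 RNA differed between the days. H1f2 provided 68.1%, 76.7% and 62.5% of the H1 sum in CTL on day 0 and 65.2%, 61.6% and 59.6% in LIP. On day 2 it provided 37.1%, 37.6% and 36.2% in CTL and 38.6%, 40.5% and 42.8% in LIP. The lowest day 0 share was above the highest day 2 share. Per kilobase of coding sequence, H1f2 had the highest group mean in all 4 groups, at 428 CPM per kb in CTL and 337 in LIP on day 0 and 1064 and 1602 on day 2. H1f3 and H1f4 came next in each group. H1f4 was above H1f3 in CTL on day 0 (84.9 against 68.8 CPM per kb) and below it in the other 3 groups, and H1f1 and H1f5 were lowest in every group, in an order that changed between groups.

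**Figure D3:**
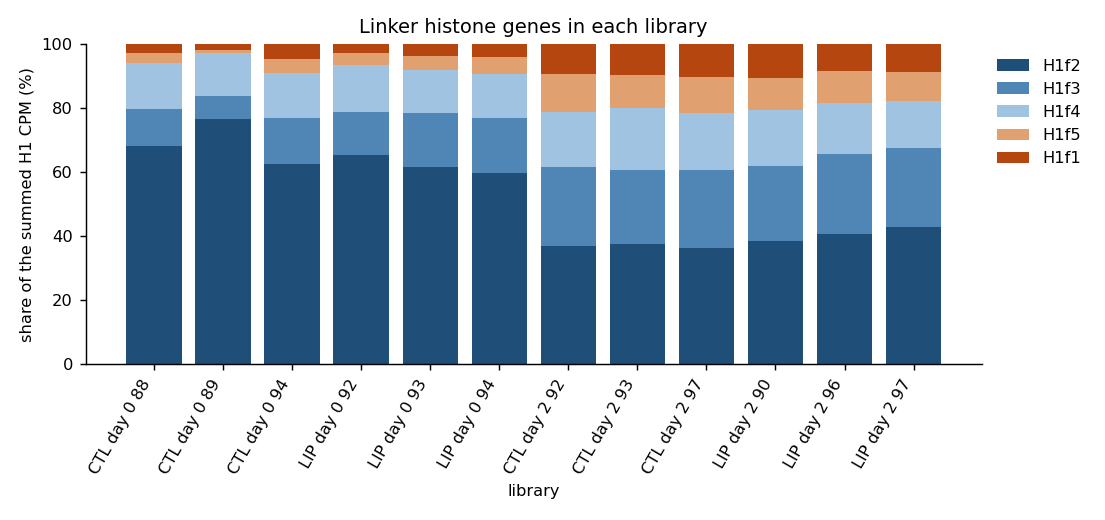
Share of the summed H1 level provided by each H1 gene in each library, in percent. H1f2 holds 59.6% to 76.7% on day 0 and 36.2% to 42.8% on day 2.

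H2A pairs with H2B in the outer dimers of the nucleosome. H2ac18 had the highest mean level per kilobase of the H2A genes in every group, and H2ac24 was next on day 2, while H2ac20 was next on day 0. H2ac18 measured 114, 102 and 178 CPM in CTL and 123, 121 and 140.1 in LIP on day 0, and 801, 1117 and 1212 in CTL and 1305, 987 and 1396 in LIP on day 2. H2ac24 measured 13.5, 7.93 and 30.3 CPM in CTL and 26.8, 22.6 and 30 in LIP, then 277, 345 and 518 in CTL and 509, 343 and 509 in LIP. All their day 2 values exceeded all their day 0 values, and the log2 rises in CTL were 2.99 (SE 0.22) and 4.46 (SE 0.39). H2ac10 was among the strongest risers in CTL, from 3.31, 1.2 and 8.4 to 76.9, 96.1 and 131 CPM, a log2 change of 4.56, against 5.91, 4.63 and 4.67 to 132, 87.5 and 104 CPM and 4.41 in LIP. All 14 tested H2A genes were called higher in both groups, over a range of 2.16 to 4.58 in CTL and 1.27 to 4.41 in LIP. H2ac21, at the upper end in CTL and the lower end in LIP, rested on few reads: 2 counts on day 0 and 66 on day 2 in CTL, a ratio of 27.9 (95% counting interval 7.43 to 236), and 17 and 57 counts in LIP, a ratio of 2.48 (1.42 to 4.55). Its call in LIP (adjusted p = 0.0397 in edgeR) was lost in some alternatives, with adjusted p from 0.0269 to 0.145.

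H2B is the partner of H2A in the dimer. H2bc8 stood at 29.5, 25.6 and 75.2 CPM in CTL and 40, 45.9 and 49.9 in LIP on day 0, rising to 312, 389 and 431 in CTL and 612, 539 and 762 in LIP on day 2. H2bc6 stood at 61.2, 44.8 and 128 CPM in CTL and 81.5, 75 and 84.4 in LIP and then at 490.3, 555 and 616 in CTL and 843, 656 and 744 in LIP. Their log2 rises were 3.12 and 2.83 in CTL and 3.81 and 3.22 in LIP. H2bc21 was the only one of the 57 tested members with a lower fitted level on day 2. Its levels were 4.06, 4.92 and 6.96 CPM in CTL and 5.36, 4.63 and 6 in LIP on day 0, and 2.74, 4.53 and 3.06 in CTL and 3.13, 2.43 and 2.98 in LIP on day 2. In CTL the values of both days overlapped, and in LIP every day 2 value was below every day 0 value. H2bc21 fell by 0.63 (SE 0.27, adjusted p = 0.0479) in CTL on the log2 scale, where DESeq2, no filter on low counts, a fit of the 6 CTL libraries alone and leaving out any of CTL 89 or 94 of day 0 or CTL 92 or 97 of day 2 each ended the call (adjusted p from 0.00699 to 0.274 over the alternatives). In LIP it fell by 0.91 (SE 0.27, adjusted p = 0.00825). The other 3 members with no stem-loop match were called higher, H2ac22 by 3.60 in CTL and 3.55 in LIP, H3c8 by 3.88 and 3.81 and H4c1 by 3.47 and 4.07. H2ac20, whose promoter window overlaps that of H2bc21, rose by 2.68 in CTL and 2.64 in LIP.

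H3 forms the core tetramer of the nucleosome with H4. H3c7 held 46, 35.3 and 57.2 CPM in CTL and 40.7, 37.8 and 49.7 in LIP on day 0, and 225, 359 and 306 in CTL and 406, 347 and 509 in LIP on day 2. H3c3 held 11, 3.12 and 26.4 CPM in CTL and 14.7, 12.5 and 18.4 in LIP, then 229.8, 343 and 364 in CTL and 479, 284 and 449 in LIP. H3c15 held 7.52, 2.64 and 20.6 CPM in CTL and 14.6, 9.26 and 18.1 in LIP, then 219.9, 325 and 371 in CTL and 336, 299.9 and 432 in LIP. The rise was 2.68 (SE 0.21) for H3c7, 4.54 (SE 0.48) for H3c3 and 4.90 (SE 0.47) for H3c15 in CTL, that of H3c15 being the highest of any member with all libraries in the fit. With each library left out it ran from 4.42 to 5.99, the highest without CTL 94, where the sparse H2ac21 stood higher at 7.40. Of the 12 tested H3 genes, 11 were called higher in CTL and 12 in LIP. The exception, H3c14, whose coding sequence matches H3c15, gave 26 counts on day 0 and 97 on day 2 in CTL (log2 change 1.65, adjusted p = 0.107) and 3 and 129 in LIP. No H3 value above 0 was a whole number, so the division among H3 copies carries an error that the SE does not include.

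H4 completes the tetramer, and the median log2 change of its tested genes was 2.61 in CTL and 3.12 in LIP, beside 3.74 and 3.97 for H3. The difference between families was not tested. H4c18 ran at 126, 93.1 and 191 CPM in CTL and 106, 106 and 128 in LIP before culture and at 393, 453 and 511 in CTL and 869.6, 477 and 584 in LIP after it. H4c3 ran at 95.5, 62.9 and 128 CPM in CTL and 85.5, 87 and 94.1 in LIP and then at 382, 529 and 556 in CTL and 759, 438 and 463 in LIP. H4c4 ran at 94.4, 90 and 127 CPM in CTL and 83.5, 84.9 and 93.5 in LIP, then at 349.8, 420.3 and 396 in CTL and 519, 414 and 462 in LIP. H4c18 and H4c4, both among the 5 weakest risers in CTL, changed by 1.73 and 1.90 there and by 2.5 and 2.41 in LIP, and H4c3 by 2.36 and 2.64. All 11 tested H4 genes were called higher in both groups.

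Genes known to act with these histones were read from lists. All 25 genes of DNA synthesis in S phase were called higher in both groups, with a median log2 change of 3.04 in CTL and 3.18 in LIP, as were all 15 mitosis genes, with medians of 4.87 and 4.65. Histone chaperones, which escort histones onto DNA, rose in 16 of 21 in either group, and 1, Cabin1, fell in LIP. Of the 12 genes of histone gene transcription 8 rose and 2 fell in each group, the latter being Yy1 and Pou2f1, and Npat, the coactivator of histone genes, rose by 0.87 in CTL and 1.11 in LIP. Of 19 genes that process or degrade histone mRNA ends, 11 rose in each group while 3 (Lsm11, Tut7 and Cstf2t) fell in CTL and 1 fell in LIP. Slbp rose by 1.94 in CTL and 2.00 in LIP. Npat and Slbp were picked for their roles after their values were seen. Replication-independent variants such as H2A.Z, which carry poly(A) tails, rose in 11 of 11 genes in CTL and 10 of 11 in LIP. Of 7 tested records of other RNAs that lack a poly(A) tail, 0 rose and 2 fell in CTL while 2 rose and 0 fell in LIP.

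The histone sum was also set against the sum of the DNA synthesis genes. Per CPM of the DNA synthesis sum it was 2.09, 1.83 and 3.39 in CTL and 2.5, 2.49 and 2.64 in LIP on day 0, and 2.1, 2.52 and 2.26 in CTL and 2.85, 2.22 and 3.18 in LIP on day 2. The day 0 and day 2 ratios overlapped in each group. CTL 94 of day 0 stood highest among day 0 libraries in the histone sum and in the mitosis sum, which was 273 CPM there against 137 and 62.3 in CTL 88 and 89, while its DNA synthesis sum of 690 CPM lay beside the others' 685 and 597.

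**Figure D4:**
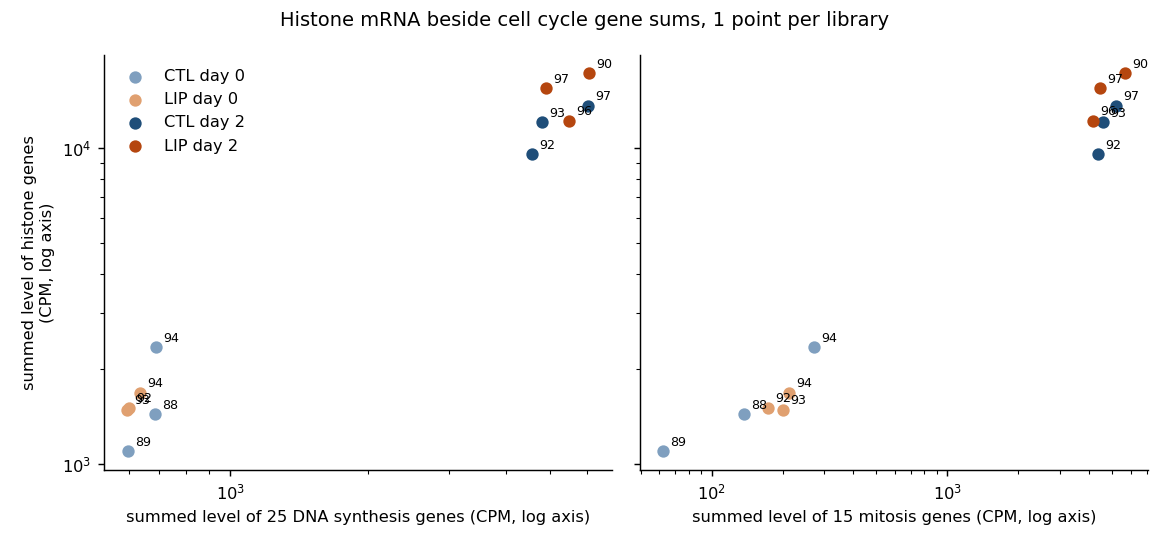
Summed histone level of each library against its summed level of DNA synthesis genes and of mitosis genes, in CPM on log axes. CTL 94 lies at 2338 CPM of histone RNA, above the 1094 to 1675 of the other 5 day 0 libraries.

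The comparison of LIP with CTL asks whether periodontitis left a difference in these genes in spleen CD4+ T cells. On day 0 no member passed the test in edgeR. Of 54 tested, 0 were called in either direction, against 0.427% of all 14064 genes called in either direction (60 genes). At an unadjusted p under 0.05, 0 were higher (6.67% of all genes) and 1 was lower (7.2%), and the 3 LIP values lay all above the 3 CTL values in 0 members (9.27%) and all below them in 1 (9.85%). The median log2 difference was 0.05, beside 0.01 over all genes, and 35 of the 54 were positive. The member that stood apart was H1f2, whose LIP levels on that day were each below each CTL level. Its difference was -0.34 (SE 0.09, adjusted p = 0.131 in edgeR). DESeq2 called it, as the 1 member called lower where it called 1.17% of all genes lower, and its adjusted p ran from 0.00397 to 0.619 over the alternatives.

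The smallest p-values in the positive direction belonged to H2ac24, H2ac7 and H3c4. H2ac24, with the levels given above, differed by 0.63 (SE 0.34). H2ac7, at 12.2, 3.6 and 26.1 CPM in CTL and 21.2, 19.5 and 26.5 in LIP, differed by 0.70 (SE 0.44). H3c4, at 4.96, 2.4 and 12.5 CPM in CTL and 9.07, 9.69 and 11.3 in LIP, differed by 0.61 (SE 0.41). In all 3 genes CTL 88 and 89 were below every LIP library and CTL 94 was not. Besides H1f2, the smallest p-values in the negative direction belonged to H4c4, at -0.24 (SE 0.12), and H2bc18, which measured 18.3, 20.4 and 26.3 CPM in CTL and 19.9, 14.7 and 20.1 in LIP and differed by -0.24 (SE 0.16). The groups overlapped in both.

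The day 0 result turned on the CTL libraries. Without CTL 94, 16 of the 54 members were called higher in LIP (7 H2B, 6 H3, 2 H2A and 1 H4) and 0 lower, 49 were positive and their median was 0.71, while 1.79% of all 14343 genes tested were called higher. Without CTL 89, by contrast, only 4 of 54 were positive and the median was -0.25. CTL 94 also had the highest mitosis sum, given above, and the highest sum of myeloid markers in its group, 16.8 CPM against 6.92 and 6.13, where LIP held 9.07 to 15.6. Other RNAs without a poly(A) tail, dominated by Rn7sk, summed to 30210.1 to 31830 CPM in CTL and 24474 to 26181 in LIP on day 0. Of their 6 tested records 2 were lower at an unadjusted p under 0.05, with a median difference of -0.31. Markers of CD8 and NK cells summed to 73.2 to 81.3 CPM in CTL and 61.7 to 69.9 in LIP on day 0, sums that did not overlap, as for H1f2. Pancreatic acinar markers summed to 0.601 to 1.18 CPM in CTL and 0.687 to 25.1 in LIP, highest in LIP 93. The part of these in the result was not tested.

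On day 2 most members had higher values in LIP, and none passed the test. Of 57 tested, 53 were positive and the median difference was 0.25, beside -0.01 over all genes. In edgeR 0 members were called, as were 0% of all 14041 genes, where DESeq2 called 286 genes higher and 199 lower. At an unadjusted p under 0.05, 12 were higher, against 8.33% of all genes, and 0 were lower, against 8.2%. The 3 LIP values lay all above the 3 CTL values in 9 members (10.9% of all genes) and all below in 0 (10.5%). Of the 12, 5 were H4 genes, 2 each were H1, H2B and H3 genes and 1 was an H2A gene. DESeq2 called 5 of the 57 members higher, against 2.04% of all genes. The total histone sum had a ratio of means of 1.27, and LIP 96, at 12238 CPM, lay among the CTL libraries.

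**Figure D5:**
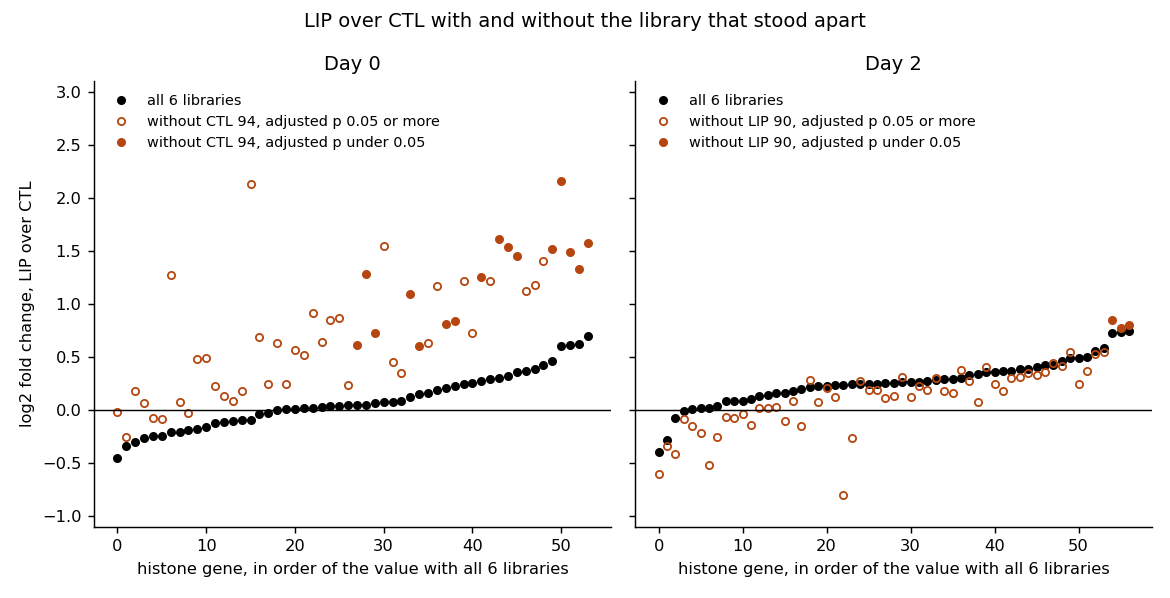
Log2 difference of LIP from CTL for each tested member, ordered by its value with all 6 libraries of the day (black), on day 0 (54 members) and day 2 (57 members). Orange points are the values without CTL 94 on day 0 and without LIP 90 on day 2, filled where the adjusted p was under 0.05 (16 members on day 0 and 3 on day 2).

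H3c10 had the smallest p, with 19.7, 19.1 and 22.3 CPM in CTL and 33.9, 33.6 and 35.3 in LIP. Its difference was 0.74 (SE 0.13, adjusted p = 0.101 in edgeR). Of its stretches of read length, 90.5% were shared with other H3 genes. Its expected counts on day 0 were uneven, at 4.66, 2.37 and 43.54 in CTL and 14.44, 31.91 and 0 in LIP. The part of read division in its day 2 difference was not tested. Next by p came the divergent pair H2ac8 and H2bc8. H2ac8 had 56.9, 50.5 and 67.2 CPM in CTL and 84.1, 91.4 and 116 in LIP, a difference of 0.73 (SE 0.17, adjusted p = 0.131 in edgeR), and H2bc8, with the levels given above, differed by 0.75 (SE 0.18, adjusted p = 0.135 in edgeR). In these 3 genes the LIP values lay wholly above the CTL values. H1f2 was likewise higher in each LIP library, by 0.58 (SE 0.17, adjusted p = 0.179 in edgeR). Only H2ac21, H2bc21, H2bc4 and H2ac13 had negative differences. H2ac21 measured 2.43, 1.55 and 3.4 CPM in CTL and 2.41, 1.87 and 1.29 in LIP and H2bc21 2.74, 4.53 and 3.06 in CTL and 3.13, 2.43 and 2.98 in LIP, with differences of -0.40 (SE 0.38) and -0.28 (SE 0.29). H2bc4 measured 149, 182 and 195 CPM in CTL and 243, 119 and 141 in LIP and differed by -0.08 (SE 0.25), a sign that turned without CTL 97, LIP 96 or LIP 97.

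Without LIP 90, 3 members (H3c10, H2ac8 and H2bc8) were called higher, 41 of 57 were positive and the median was 0.18, while 7.74% of all 14453 genes tested were called higher. Without CTL 92, 0 members were called, 43 were positive and the median was 0.16. Without CTL 97 or LIP 96 the median was 0.39. Other measures moved with the group on day 2. Markers of CD8 and NK cells summed to 15 to 17.1 CPM in CTL and 27.4 to 46.4 in LIP, with 2 of the 4 tested higher at an unadjusted p under 0.05 and Cd8a between 0.105 and 2.24 CPM, and 2 LIP libraries held more counts than any CTL library. Markers of B and plasma cells summed to 103 to 139 CPM in CTL and 130 to 170 in LIP, with a median difference of 0.63 over 8 tested, of which 0 were higher and 1 was lower at an unadjusted p under 0.05. Pancreatic acinar markers summed to 5.22 to 10.4 CPM in CTL and 3.67 to 7.66 in LIP, and the 1 tested was lower in LIP at an unadjusted p under 0.05 (difference -1.09). The other RNAs without a poly(A) tail had a median difference of 0.39 over 5 tested records, with 0 past an unadjusted p of 0.05. Their part in the result was not tested. The DNA synthesis sum was 4563, 4800.4 and 6036 CPM in CTL and 6063, 5503 and 4882 in LIP, groups that overlapped.

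Whether the LIP difference changed between days was tested as an interaction, with libraries shared by the comparisons above. Of 57 members 0 were called in edgeR, against 0.0517% of all 15475 genes. At an unadjusted p under 0.05, 4 members shifted upward with culture in LIP relative to CTL (8.65% of all genes) and 1 downward (7.28%). The 4 were H1f2 at 0.94 (SE 0.20, adjusted p = 0.0839 in edgeR), H4c18 at 0.78, H4c1 at 0.61 and H4c4 at 0.51, and the 1 was the sparse H2ac21 at -3.32. In H1f2 every LIP value was below every CTL value on day 0 and above it on day 2. DESeq2 called 1 member upward, beside 2.4% of all genes. Of the other RNAs without a poly(A) tail, 4 of 7 tested records shifted upward at an unadjusted p under 0.05, with a median of 0.72, and the 1 tested acinar marker shifted downward (-6.44). Their part in the members' values was not tested. The members' median interaction was 0.22, and without CTL 94 of day 0 it was -0.48.

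Genes that work with histones showed no call between LIP and CTL on either day in any of the 6 lists in edgeR. At an unadjusted p under 0.05 on day 0, where 6.67% of all genes were higher and 7.2% lower, DNA synthesis had 0 higher and 4 lower of 24, mRNA ends 0 and 2 of 19, variants 0 and 2 of 9, chaperones 2 and 1 of 21, and transcription (12 tested) and mitosis (15 tested) 0 in both directions. On day 2, where 8.33% of all genes were higher and 8.2% lower, DNA synthesis had 4 higher and 0 lower of 25, mRNA ends 4 and 0 of 19, variants 1 and 0 of 11, chaperones 1 and 1 of 21, transcription 0 and 1 of 12, and mitosis 0 in both directions of 15. On day 0 the smallest adjusted p of each list (edgeR) belonged to Chaf1b, a subunit of the CAF-1 chaperone (0.77, adjusted p = 0.153), Pcna, the sliding clamp of DNA replication (-0.38, 0.165), the centromeric variant Cenpa (-0.33, 0.304), Cstf2t (-0.18, 0.306), E2f2 (0.21, 0.46) and Top2a (0.52, 0.557). On day 2 they were Daxx, a chaperone of H3.3 (1.04, 0.119), Lsm10, a subunit of the U7 particle that cuts histone mRNA ends (0.73, 0.193), Cdc45 of the replicative helicase (0.46, 0.197), Pou2af1 (-0.57, 0.213), H2az1 (0.32, 0.296) and Bub1 (0.22, 0.524). None of these values passed the threshold.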

How the data were processed

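RNA was measured in 12 libraries of spleen CD4+ T cells, 3 in each of 4 groups, made from total RNA after ribosomal RNA depletion with a directional kit and read as 150-base pairs. Per the study's methods and the labels, the authors trimmed reads with Trimmomatic (its version differs between these sources), mapped them to GRCm39 and quantified genes with RSEM 1.3.0 and Bowtie2. The deposited table of expected counts, in which RSEM divides reads among similar copies, was rounded to whole numbers here. The authors' per-day result tables hold a normalized signal per library, fold changes and p-values, and only their gene symbols were used. Other values in these tables, including 2 columns that match no labelled sample, were left out. The 4 genes named like members by GENCODE but with another symbol in those tables were not included.

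LIP and CTL were compared within each day (6 libraries) with edgeR 4.0.16 (R 4.3.3): filterByExpr, TMM normalization, the quasi-likelihood F-test (two-sided) and Benjamini-Hochberg adjustment over all genes tested. Day contrasts and the interaction came from a single fit of all 12 libraries, which also gave the CPM values. Alternatives were DESeq2 1.42.0, RLE and upper-quartile scaling, other filters on low counts (none, or at least 10 in every library), protein-coding genes only, another set of libraries in the fit, members summed by family, leaving out each library, and, chosen after seeing the data, library number as a block in the interaction. The fits were tested on simulated data. With 3 libraries per group an exact permutation test of a single value cannot give p below 0.1. Intervals on few counts cover counting error only. The members, the gene lists and the tests were chosen with earlier results of these data known. Genes named were H1f1 to H1f5, the 2 members per core family with the highest CPM per kilobase, in each LIP comparison the 3 with the smallest p in each direction, the 5 highest and 5 lowest changes over culture in CTL, and for each pathway list the gene with the smallest adjusted p. Further members (named for their sequence, shared reads, low counts, sign or interaction) and further list genes, such as Npat and Slbp, fall outside this rule. Sequences and motifs were read from GRCm39 with GENCODE M39.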

Additional observations from a re-analysis of the deposited data

How the results depend on the processing

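Counts of called members kept their value or stayed within 1.5 times it in 119 of 142 cases, and 183 of 192 family sums moved by less than the spread between libraries. For LIP against CTL on day 0, the higher members (0) became 2 with no filter on low counts (1.03% of all genes) and 0 to 16 with each library left out, the highest without CTL 94, and the lower members (0) became 1 with DESeq2 (1.17%) and 2 with no filter (1.49%). On day 2 the higher members (0) became 5 with DESeq2 (2.04% of all genes), 5 with no filter (1.59%), 1 with all 12 libraries in 1 fit (2.88%) and 0 to 3 with each library left out, the highest without LIP 90. The lower member of the day contrast in CTL (1, H2bc21) became 0 with DESeq2, with no filter and with the 6 libraries of the group, and 0 to 1 with each library left out. In LIP the lower members (1) became 2 with no filter (19.8%). For the interaction, upward members (0) became 1 with DESeq2 (2.4%), 3 with no filter (1.82%) and 0 to 1 with each library left out (1 without LIP 90, where 5.64% of all genes were called, or LIP 96, 0.0317%), and downward members (0) became 1 with no filter (1.07%) and 0 to 1 with each library left out (1 without LIP 90, 4.45%). The log2 ratio of the summed histone CPM over culture in LIP (3.27) became 2.86 with CPM of protein-coding counts and no normalization factors. H2bc4 on day 2 (-0.08) ran from -0.41 to 0.13 with each library left out, turning positive without CTL 97 (0.01), LIP 96 (0.13) and LIP 97 (0.03). The cause was not tested. Any pair of groups compared directly shares fewer than 2 library numbers. In the fit of all 12 libraries a replicate block on the 8 numbers, chosen after seeing the data, left 1 residual degree of freedom and gave 7 upward and 0 downward members for the interaction, where 2.39% of all genes were called upward. Same-numbered libraries did not all deviate together (correlations across 15475 genes of 0.12, -0.02, -0.06 and -0.07). The labels do not say what the number stands for, and these correlations cannot decide whether such libraries share an animal or a batch. Members with few counts, such as H2ac21 and H3c14, are limited by depth, and single members with near-identical copies by the division of reads.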
